A study of Mus musculus with 8 samples.

Results

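A set of 9 genes of the visceral endoderm programme were read in mouse embryonic stem (ES) cells given an esiRNA against Ctr9 or against luciferase. They were chosen by name: the transcription factor genes Gata4, Gata6, Foxa2 and Hnf4a, the endocytic uptake genes Lrp2, Cubn, Amn and Dab2, and the secreted protein gene Afp. All 9 genes had a probe set annotated to that symbol alone, 25 probe sets of the 45037 tested, and they stand among 18193 named genes. Total RNA was hybridised to 8 one-colour Affymetrix arrays, 4 from Ctr9 esiRNA and 4 from luciferase esiRNA, the transfection control. Both groups carry the strain label Oct4-Gip, were at passage 25, received their esiRNA (short double-stranded RNAs cut by an enzyme from a longer one) by lipofection, and were taken on day 4. The samples are the whole transfected culture, so that more cells with a transcript and more of it per cell cannot be told apart. Nothing in the labels says that the 4 samples of a group were separate cultures, so that the spread behind each p-value may be technical.

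The visceral endoderm is the extraembryonic epithelium that wraps the early postimplantation embryo and feeds it before a placenta is working. It descends from the primitive endoderm, whose formation depends on the zinc finger factor GATA6 and, downstream of it, GATA4, and its cells make liver-like secreted proteins under the nuclear receptor HNF4A and the forkhead factor FOXA2. Its apical surface takes up maternal proteins through megalin, a giant receptor of the LDL receptor family encoded by Lrp2, and through cubilin, encoded by Cubn, which has no membrane anchor of its own and reaches the surface bound to amnionless, encoded by Amn. DAB2 is the clathrin adaptor that binds the tail of megalin. Several of these genes are not restricted to this tissue: Foxa2 is also a gene of the node, floor plate and definitive endoderm, and Lrp2 and Dab2 are made by other absorptive epithelia such as the kidney tubule.

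Start-site sequences are given for the factor and uptake genes whose transcripts differed most between the groups, and for starts that hold a letter match to a motif of the factors under study. They come from RefSeq on GRCm38.p6, run 5′ to 3′ on the gene's strand, and cover 250 bases before to 50 after the annotated start. Capitals mark the GATA motifs AGATAA and TGATAA on either strand (on the opposite strand they read TTATCT and TTATCA). Starts were read for 7 of the 9 genes, all but Gata4 and Gata6. Starts on the chromosome that holds Gata6 were left out before the search, so nothing is said of the start of Gata6.
Foxa2, farthest upstream start (chr2:148046920-148047219, minus strand): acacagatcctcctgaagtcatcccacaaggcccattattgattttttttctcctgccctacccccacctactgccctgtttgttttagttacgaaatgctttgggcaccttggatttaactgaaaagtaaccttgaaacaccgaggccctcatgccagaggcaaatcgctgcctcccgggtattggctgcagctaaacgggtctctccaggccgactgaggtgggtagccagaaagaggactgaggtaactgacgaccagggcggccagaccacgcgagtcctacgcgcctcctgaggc
Foxa2, farthest downstream start (chr2:148045415-148045714, minus strand): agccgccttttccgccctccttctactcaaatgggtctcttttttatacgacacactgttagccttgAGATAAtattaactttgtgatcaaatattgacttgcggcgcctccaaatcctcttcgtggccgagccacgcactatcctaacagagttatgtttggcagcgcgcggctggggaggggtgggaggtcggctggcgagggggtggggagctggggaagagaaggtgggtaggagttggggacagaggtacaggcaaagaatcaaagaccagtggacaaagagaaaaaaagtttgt
Lrp2 (chr2:69585980-69586279, minus strand): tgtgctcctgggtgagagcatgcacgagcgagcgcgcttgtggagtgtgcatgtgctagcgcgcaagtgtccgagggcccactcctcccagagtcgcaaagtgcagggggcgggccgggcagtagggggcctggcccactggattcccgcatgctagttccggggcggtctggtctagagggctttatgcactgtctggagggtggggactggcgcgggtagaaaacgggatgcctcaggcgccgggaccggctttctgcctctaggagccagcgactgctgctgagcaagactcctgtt
Dab2, farthest upstream start (chr15:6299539-6299838, plus strand): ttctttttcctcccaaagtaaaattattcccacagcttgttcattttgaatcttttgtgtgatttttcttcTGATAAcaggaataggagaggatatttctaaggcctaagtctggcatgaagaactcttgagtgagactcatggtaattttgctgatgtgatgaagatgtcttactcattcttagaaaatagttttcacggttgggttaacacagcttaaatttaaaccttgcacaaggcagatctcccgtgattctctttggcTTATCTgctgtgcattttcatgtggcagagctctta
Hnf4a, farthest upstream start (chr2:163506607-163506906, plus strand): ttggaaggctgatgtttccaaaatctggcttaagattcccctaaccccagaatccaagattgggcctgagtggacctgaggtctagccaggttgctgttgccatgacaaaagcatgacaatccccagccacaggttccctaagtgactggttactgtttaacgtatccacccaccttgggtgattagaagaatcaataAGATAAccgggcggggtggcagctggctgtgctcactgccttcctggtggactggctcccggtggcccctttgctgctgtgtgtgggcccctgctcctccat

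The start of Lrp2 is rich in CpG, with 20 CpG pairs and 65% G and C, and holds none of the motifs searched. The upstream Dab2 start is the opposite in composition, with 2 CpG pairs and 37.7% G and C, and holds 1 match to AGATAA, on the opposite strand, and 1 match to TGATAA. Its downstream start has 19 CpG pairs and no match. The median promoter of the 32851 in the table has 7 CpG pairs. AGATAA occurs in 11.2% and TGATAA in 9.05% of all these windows, and the matches in Foxa2, Hnf4a and Dab2 did not overlap another motif. The FOXA motif TGTTTAC (3.65% of windows) and the HNF4 motif CAAAGTCCA (0.475%), searched on both strands, matched none of the 11 starts of the 7 genes. These are letter matches in a short window and say nothing of binding.

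The arrays were alike in distribution, with medians between 5.74 and 5.76 and upper quartiles from 8.1 to 8.15 on the log2 scale, and correlated at 0.997 to 0.998 within a group and 0.992 to 0.994 between groups. The number of arrays limits the precision. Means of the 10 ES cell markers ran from 10.72 to 14.61 with Ctr9 esiRNA and from 11.82 to 14.70 with luciferase esiRNA, all above the array median, and 6 of the 10 were lower with Ctr9 esiRNA (median difference -0.31; 60% past the test, against 30.8% of all genes). Ctr9 itself was ambiguous: of 5 probe sets, 2 fell (by 0.15 and 0.18) and another rose (by 0.29, limma adjusted p = 0.0228). The one that rose averaged 6.20 with Ctr9 esiRNA and 5.90 with luciferase esiRNA, above the array median in both groups. The dimmest differed by 0.27 (limma adjusted p = 0.125) and the brightest by -0.09 (SE 0.047, limma adjusted p = 0.209), neither past the test. For this reason, group names are taken from the labels alone.

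Taking the brightest probe set of each of the 9 genes, 4 were higher with Ctr9 esiRNA (Foxa2, Lrp2, Dab2 and Amn), 1 was lower (Hnf4a), and Gata4, Gata6, Cubn and Afp did not pass limma's test at a Benjamini-Hochberg adjusted p of 0.05. Over all genes on the array 30.8% passed, 15.8% higher and 15% lower, so 5 of 9 is to be read against a broad background. By role, 1 of 4 transcription factor genes was higher and 1 lower, and 3 of 4 uptake genes were higher and none lower. The median log2 difference was -0.022 for the 4 factor genes and 0.78 for the 4 uptake genes, against 0.0036 over all genes. By size, Foxa2 ranked 22, Lrp2 57 and Dab2 108 among the 18193 genes ordered from the largest increase, while Amn ranked 1665. These ranks describe one comparison and were known when the genes were chosen.

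**Figure D1:**
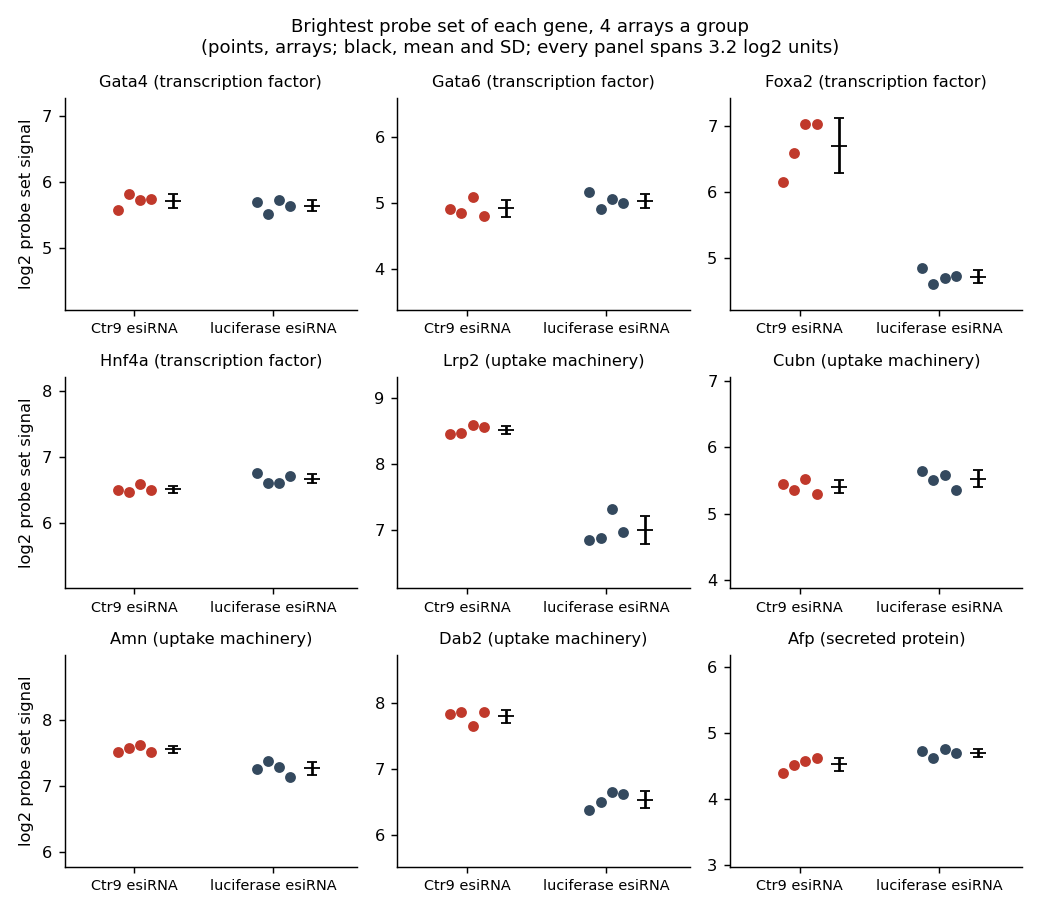
Log2 signal of the brightest probe set of each of the 9 genes (vertical axis) on the 4 Ctr9 esiRNA arrays (red) and the 4 luciferase esiRNA arrays (dark), with the mean and SD in black. Every panel spans the same number of log2 units; the groups stand far apart for Foxa2, Lrp2 and Dab2, stand just apart for Amn and Hnf4a, meet at the same value for Afp, and overlap for Gata4, Gata6 and Cubn.

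Foxa2 was the factor gene that rose. Its single probe set read 6.15, 6.59, 7.02 and 7.02 in the Ctr9 esiRNA arrays, against 4.85, 4.61, 4.69 and 4.72 in the luciferase arrays. The lowest Ctr9 esiRNA array lay 1.30 log2 units above the highest luciferase array. The difference was 1.98 (SE 0.169, 95% interval 1.6 to 2.35; limma adjusted p = 2.04e-05), or 3.94-fold. The Ctr9 esiRNA arrays were far less even than the controls, with an SD of 0.414 against 0.0995 (n = 4 each), and the first of them was the lowest. In the luciferase arrays Foxa2 stood at the 34.6 percentile of all probe sets by mean signal, below the array median, and in the Ctr9 esiRNA arrays at the 61.3 percentile. RMA, the authors' summary method, compresses differences of low signals, so the size of this change is uncertain.

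Gata4 and Gata6, the zinc finger factors at the head of the primitive endoderm programme, showed no such difference. The brightest Gata4 probe set read 5.57, 5.81, 5.73 and 5.74 with Ctr9 esiRNA and 5.69, 5.52, 5.72 and 5.63 with luciferase esiRNA, and these ranges overlap. Its difference was 0.07 (95% interval -0.07 to 0.22; limma adjusted p = 0.489), and the other Gata4 probe set differed by -0.17 (limma adjusted p = 0.0959), which passed without luciferase replicate 4 (limma adjusted p = 0.0454). The brightest Gata6 probe set read 4.92, 4.86, 5.10 and 4.81 with Ctr9 esiRNA and 5.17, 4.91, 5.06 and 5.01 with luciferase esiRNA. The 3 Gata6 probe sets differed by -0.12, -0.04 and -0.10, none past the test (limma adjusted p = 0.323, 0.782 and 0.282), and the interval of the brightest one (-0.28 to 0.05) excludes a change as large as that of Foxa2. All 5 probe sets of the 2 GATA genes lay below the array median in both groups, between the 16.5 and the 49.7 percentile, where a small change would be hard to see.

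Hnf4a, the nuclear receptor gene, was slightly lower on every one of its 4 probe sets. The brightest read 6.50, 6.48, 6.59 and 6.50 with Ctr9 esiRNA, against 6.76, 6.62, 6.62 and 6.72 with luciferase esiRNA. The groups did not overlap but the gap was only 0.031, and the difference was -0.16 (SE 0.051; limma adjusted p = 0.041). The next probe set, of nearly the same brightness, averaged 6.40 ± 0.092 with Ctr9 esiRNA and 6.72 ± 0.047 with luciferase esiRNA (SD, n = 4 each), and fell by 0.32 (SE 0.056; limma adjusted p = 0.00193). The third fell short of the test (-0.18; limma adjusted p = 0.0913). The dimmest fell by 0.48 (SE 0.057; limma adjusted p = 0.000175), yet it lay at the 3.79 percentile with Ctr9 esiRNA and the 14.2 percentile with luciferase esiRNA, near the lowest signals of the array.
Averaged over all Hnf4a probe sets, the dimmest included, the fall was 0.29 (SE 0.036, limma adjusted p = 0.000153). The call on the brightest Hnf4a probe set was fragile. It ended without Ctr9 replicate 1, 2 or 4 (limma adjusted p = 0.0853, 0.0996 and 0.0952), without luciferase replicate 1 or 4 (0.105 and 0.0919), without luciferase arrays 1 and 2 or 3 and 4 (0.127 and 0.109), and with arrays centred on their medians (0.0514) or a trended prior (0.0718), whereas the second and the dimmest probe sets passed under every one of the 16 and 15 other fits run on them.

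**Figure D2:**
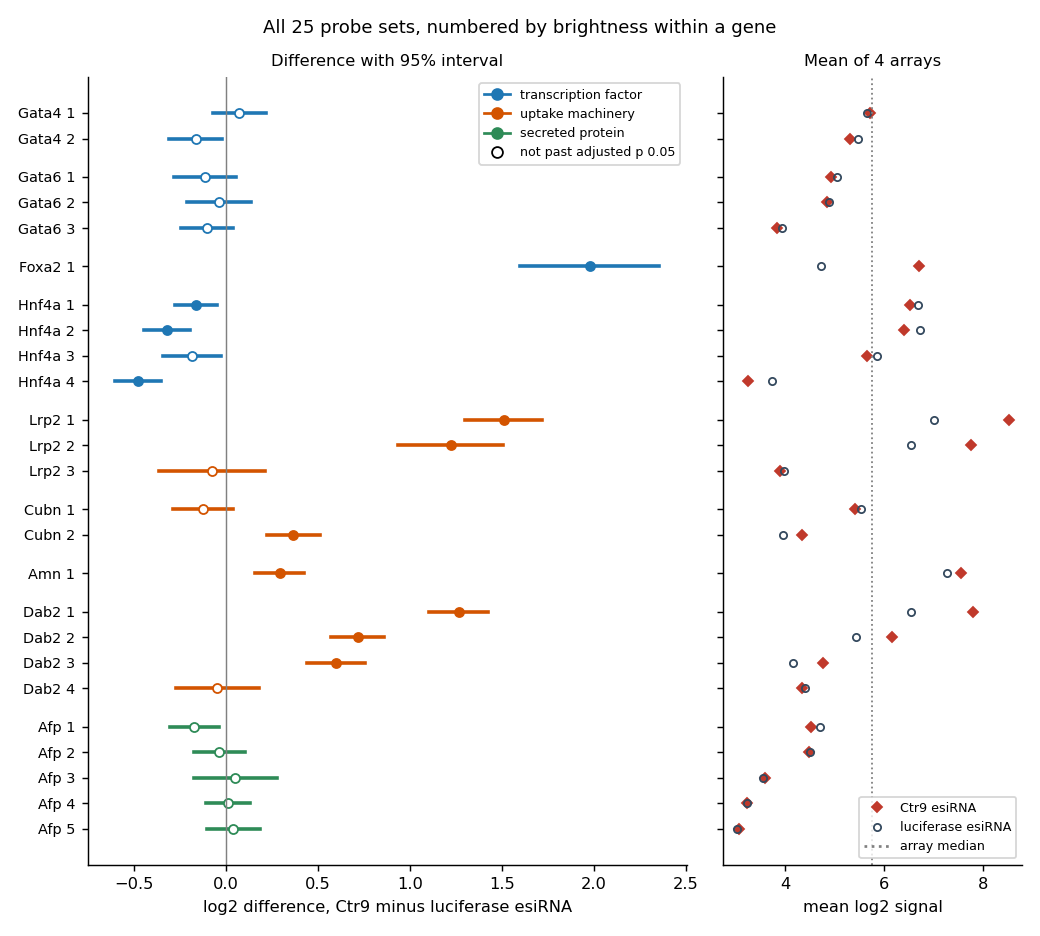
Log2 difference, Ctr9 minus luciferase esiRNA, with its 95% interval for all 25 probe sets (left) and the mean log2 signal of the 4 Ctr9 esiRNA arrays (diamonds) and the 4 luciferase arrays (circles) for the same probe sets (right). Probe sets are numbered by brightness within a gene, and filled points passed an adjusted p of 0.05. The Dab2 and Lrp2 probe sets that did not pass are the last numbered of each gene. With luciferase esiRNA that Dab2 probe set (mean 4.39) read above the third one (4.16), which passed.

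Lrp2, the megalin gene, rose on both of its brighter probe sets. Its brightest probe set read 8.46, 8.47, 8.59 and 8.56 with Ctr9 esiRNA, against 6.86, 6.88, 7.32 and 6.98 with luciferase esiRNA. Every Ctr9 esiRNA array was above every luciferase array by at least 1.14 log2 units, and luciferase array 3 was the highest of the controls. The difference was 1.51 (SE 0.094, 95% interval 1.30 to 1.72; limma adjusted p = 2.71e-06), or 2.84-fold. A second Lrp2 probe set read 7.6, 7.73, 7.75 and 7.97 with Ctr9 esiRNA, against 6.18, 6.50, 6.82 and 6.67 with luciferase esiRNA. The rise was 1.22 (SE 0.128; limma adjusted p = 7.84e-05), and the same luciferase array was the highest control. The last Lrp2 probe set was dim in both groups, at 3.90 ± 0.177 with Ctr9 esiRNA and 3.97 ± 0.264 with luciferase esiRNA (SD, n = 4 each), and did not pass (limma adjusted p = 0.727). Averaged over all 3 Lrp2 probe sets, the rise was 0.88 (SE 0.081; limma adjusted p = 1.84e-05).

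Dab2, the clathrin adaptor gene, rose on 3 of its 4 probe sets. The brightest read 7.82, 7.86, 7.65 and 7.85 with Ctr9 esiRNA, against 6.37, 6.50, 6.65 and 6.61 with luciferase esiRNA. The groups were 0.997 log2 units apart at their nearest, and the difference was 1.26 (SE 0.073, 95% interval 1.10 to 1.43; limma adjusted p = 1.62e-06), or 2.40-fold. The second probe set read 6.20, 6.18, 6.12 and 6.11 with Ctr9 esiRNA, against 5.56, 5.30, 5.53 and 5.36 with luciferase esiRNA, a rise of 0.71 (SE 0.065; limma adjusted p = 3.07e-05). The third, dimmer still, rose by 0.60 (SE 0.071; limma adjusted p = 0.000182). The dimmest over the 8 arrays differed by -0.05 and did not pass (limma adjusted p = 0.794). With luciferase esiRNA it averaged 4.39, above the third at 4.16. The size of the rise therefore ran from 1.51-fold to 2.40-fold among the probe sets that passed, and their direction was the same. Averaged over all 4, the rise was 0.63 (SE 0.054; limma adjusted p = 1.16e-05).

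Cubn and Amn encode the 2 parts of the cubilin receptor. Amn, with 1 probe set, read 7.52, 7.58, 7.62 and 7.51 with Ctr9 esiRNA, against 7.26, 7.38, 7.29 and 7.14 with luciferase esiRNA. The groups did not overlap, and the difference was small at 0.29 (SE 0.060, 95% interval 0.16 to 0.42; limma adjusted p = 0.005), or 1.22-fold. The brightest Cubn probe set read 5.45, 5.36, 5.52 and 5.29 with Ctr9 esiRNA, against 5.65, 5.51, 5.59 and 5.36 with luciferase esiRNA, with overlapping groups. Its difference was -0.12 (95% interval -0.29 to 0.04) and did not pass (limma adjusted p = 0.267). The other Cubn probe set went the other way: it read 4.46, 4.31, 4.21 and 4.33 with Ctr9 esiRNA, against 4.06, 3.95, 3.86 and 3.98 with luciferase esiRNA, and rose by 0.37 (SE 0.065; limma adjusted p = 0.00216). That probe set lay at the 27.5 percentile with Ctr9 esiRNA and the 19.6 percentile with luciferase esiRNA, so the direction for Cubn depends on the probe set taken and both readings are dim.

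Afp, the alpha-fetoprotein gene and a classical secreted product of the visceral endoderm, read below the array median in both groups, its brightest probe set at the 31.3 percentile with Ctr9 esiRNA and the 34.3 percentile with luciferase esiRNA. That brightest probe set read 4.39, 4.52, 4.58 and 4.62 with Ctr9 esiRNA, against 4.72, 4.62, 4.76 and 4.69 with luciferase esiRNA. The highest Ctr9 esiRNA array and the lowest luciferase array had the same value, and the difference of -0.17 (SE 0.060) did not pass (limma adjusted p = 0.0644). Without Ctr9 replicate 4 it passed only just (limma adjusted p = 0.04999). The other 4 Afp probe sets differed by -0.04 to 0.05, and the dimmest stood at the 0.97 percentile with Ctr9 esiRNA and the 0.64 percentile with luciferase esiRNA.

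Over all 25 probe sets 8 were higher and 3 lower, 11 in all, against 24.9% of all probe sets. Among the 10 probe sets of uptake genes 7 were higher and none was lower, with a median difference of 0.48; among the 10 of transcription factor genes 1 was higher and 3 were lower, with a median of -0.14; none of the 5 Afp probe sets passed. Probe sets of a gene share its transcript and are not separate evidence. The groups did not overlap for 11 of the 25 probe sets, against 28.6% of all probe sets, and for 5 of the 9 genes by their brightest probe set, against 36.6% of all genes.

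**Figure D3:**
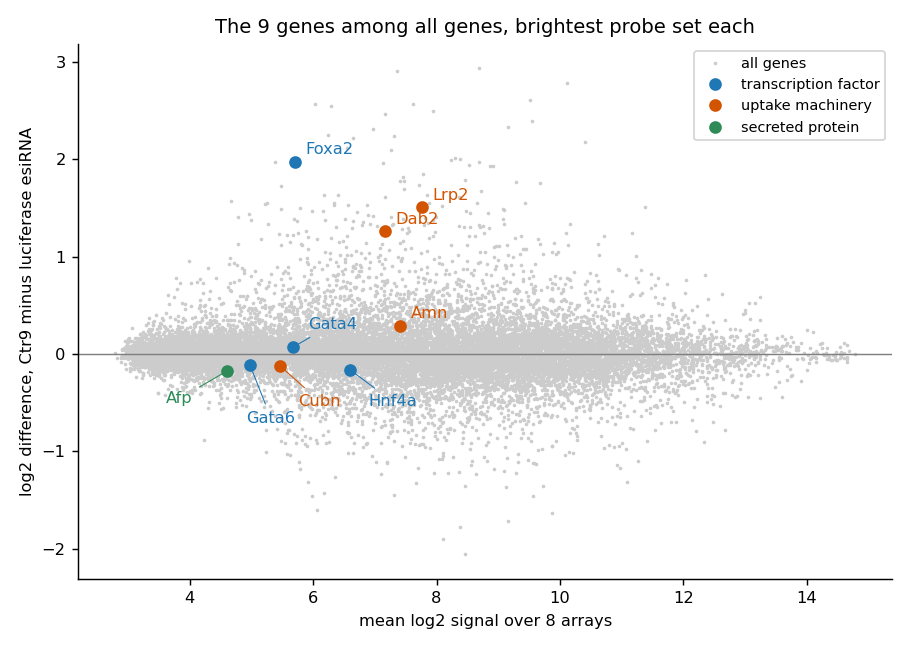
Log2 difference, Ctr9 minus luciferase esiRNA (vertical axis), against mean log2 signal over the 8 arrays (horizontal axis) for all 18193 genes by their brightest probe set (grey), with the 9 genes coloured by role. Foxa2 at 1.98, Lrp2 at 1.51 and Dab2 at 1.26 lie in the upper fringe of the cloud, Amn at 0.29 within it, and the other 5 genes between -0.17 and 0.07.

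Whether genes with linked roles changed by different amounts was tested on the arrays themselves. On each array the deviation of 1 gene from its luciferase mean was subtracted from that of another, and the 4 Ctr9 esiRNA values were set against the 4 luciferase values in an exact two-sided permutation test over 70 splits, whose smallest p is 0.0286, with Benjamini-Hochberg adjustment over the 5 pairs compared. The pairs were chosen with earlier results of these data known. Lrp2 changed more than Cubn, its partner receptor, by 1.63 log2 units (95% interval 1.31 to 1.95; exact p = 0.0286, adjusted 0.0476). Cubn changed by -0.42 relative to Amn (95% interval -0.58 to -0.25, exact p = 0.0286, adjusted 0.0476). That value is for the brightest Cubn probe set. The other Cubn probe set rose by 0.37, against 0.29 for Amn, and was not tested alone in a pair. Foxa2 changed more than Hnf4a by 2.14 (95% interval 1.66 to 2.62; exact p = 0.0286, adjusted 0.0476), higher in 4 of 4 Ctr9 esiRNA arrays than in any luciferase array.
For Lrp2 against its adaptor gene Dab2 the difference of 0.24 (95% interval -0.00088 to 0.49) did not pass (exact p = 0.0857, adjusted 0.0857), although it did without luciferase array 3 (0.31; exact permutation, adjusted p = 0.0357); nor did Gata4 against Gata6 pass, at 0.19 (95% interval -0.03 to 0.41; exact p = 0.0857, adjusted 0.0857). With the mean over all probe sets of each gene the Lrp2 and Cubn difference shrank to 0.76 (exact permutation, adjusted p = 0.0714) and the Cubn and Amn difference to -0.17 (adjusted p = 0.107); the change of Lrp2 itself was then 0.88 and that of Cubn 0.12. The Foxa2 and Hnf4a difference was then 2.26 (adjusted p = 0.0714), which is no smaller than on the brightest probe sets. Each adjusted p also depends on the p-values of the other pairs, so its rise alone does not show a weaker difference. The adjusted 0.0476 likewise rests on Lrp2 minus Cubn, Cubn minus Amn and Foxa2 minus Hnf4a all standing at the smallest p.

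**Figure D4:**
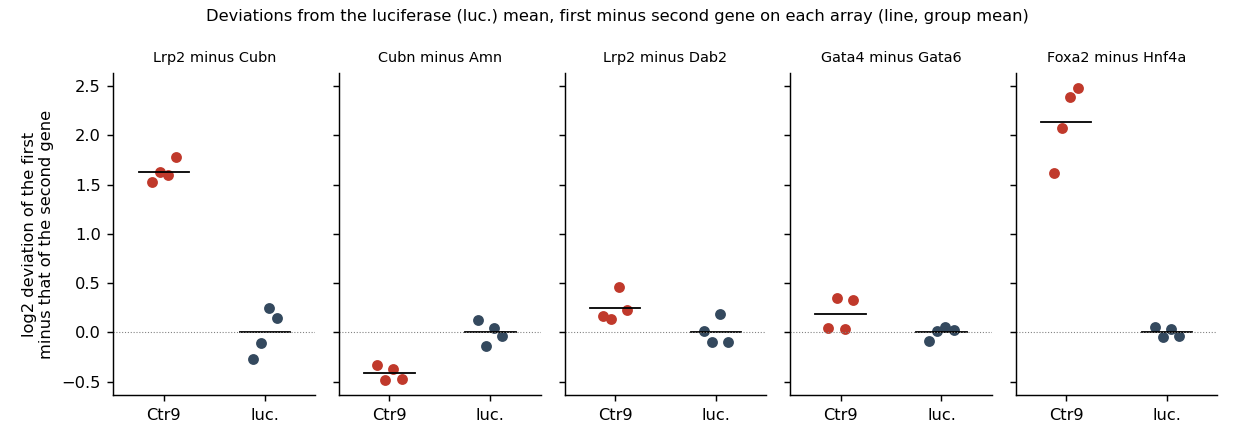
For 5 pairs of genes, the log2 deviation of the first gene from its luciferase mean minus that of the second (vertical axis) on each Ctr9 esiRNA array (red, left) and each luciferase array (dark, right), with a line at the group mean. The groups separate for Lrp2 minus Cubn, Cubn minus Amn and Foxa2 minus Hnf4a, and overlap for Lrp2 minus Dab2 and Gata4 minus Gata6.

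The rest of the visceral endoderm programme did not move as one. Of 26 measured other visceral endoderm genes 5 rose and 2 fell (26.9%, against 30.8% of all genes), and the list's median was -0.053, against 0.0036 over all genes. Of the 26, 12 read below the array median with luciferase esiRNA, where a small change would be hard to see. The tight junction gene Cldn6 averaged 9.76 ± 0.052 with Ctr9 esiRNA and 8.42 ± 0.084 with luciferase esiRNA (SD, n = 4 each), a rise of 1.34 (limma adjusted p = 2.14e-07). The Nodal inhibitor gene Lefty1 rose by 0.76 (limma adjusted p = 1.52e-05), at 12.42 ± 0.073 with Ctr9 esiRNA and 11.66 ± 0.099 with luciferase esiRNA, and is also made by ES cells themselves. The transcriptional coregulator gene Cited1 rose by 0.82 (limma adjusted p = 3.29e-05), and the trypsin inhibitor gene Spink1 fell by 0.54 (limma adjusted p = 0.000171). A further pair of genes was singled out after their values were seen. Ttr, which encodes the thyroid hormone carrier transthyretin, averaged 6.56 ± 0.039 with Ctr9 esiRNA and 6.51 ± 0.020 with luciferase esiRNA (SD, n = 4 each; limma adjusted p = 0.424). Sox17, an endoderm factor gene, averaged 6.22 ± 0.220 with Ctr9 esiRNA and 6.46 ± 0.130 with luciferase esiRNA (SD, n = 4 each; limma adjusted p = 0.142).

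Among 7 measured paralogs of the factor genes, the trophoblast and blood factor genes Gata3 and Gata2 rose and Foxa1 fell (42.9%, against 30.8% of all genes). Of the 7, 5 read below the array median with luciferase esiRNA. Gata3 averaged 5.74 ± 0.042 with Ctr9 esiRNA and 4.56 ± 0.309 with luciferase esiRNA (SD, n = 4 each), a rise of 1.18 (SE 0.127; limma adjusted p = 9.10e-05). Gata2 rose by 0.42 (SE 0.071; limma adjusted p = 0.0016). Foxa1, a close relative of Foxa2, fell by 0.30 (SE 0.057; limma adjusted p = 0.00327), while Gata1, Gata5, Foxa3 and Hnf4g differed by -0.10 to 0.01 without passing. Definitive endoderm, node and floor plate are the other settings in which Foxa2 is known. Of 12 measured genes of these, 2 rose (Eomes by 0.28 and Nog by 0.23) and 2 fell (Gsc by 0.44 and Foxa1). That is 33.3%, against 30.8% of all genes, at a list median of 0.064. Of the 12, 5 read below the array median with luciferase esiRNA.

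Of 12 measured members of the LDL receptor family and its chaperones 2 rose and 2 fell (33.3%, against 30.8% of all genes): the sorting receptor gene Sort1 rose by 0.37 (limma adjusted p = 0.0004) and the reelin receptor gene Lrp8 by 0.30 (SE 0.073; limma adjusted p = 0.0124), while Sorl1 fell by 0.41 (limma adjusted p = 0.000244) and Vldlr by 0.38 (limma adjusted p = 0.00856). Lrpap1, the chaperone that megalin needs on its way to the surface, was singled out after its values were seen. Its brightest probe set averaged 10.91 ± 0.025 with Ctr9 esiRNA and 10.92 ± 0.056 with luciferase esiRNA (SD, n = 4 each, limma adjusted p = 0.915). The dimmest Lrpap1 probe set fell by 0.19 (limma adjusted p = 0.0342), and the others did not pass. Of 31 measured clathrin adaptors and endocytic genes 6 rose and 6 fell (38.7%, against the same 30.8%), at a median of 0.012. Dab1, the neuronal relative of Dab2, rose by 0.59 on its brightest probe set (limma adjusted p = 0.000162). Another Dab1 probe set rose by 0.41 (limma adjusted p = 0.000186). The rest differed by 0.17, 0.20 and 0.04 and did not pass (limma adjusted p = 0.11, 0.0719 and 0.629). The endosomal chloride exchanger gene Clcn5 rose by 0.28 (limma adjusted p = 0.00207). The inositol phosphatase gene Synj1 fell by 0.31 (limma adjusted p = 0.00102) and the myosin gene Myo6 by 0.40 (limma adjusted p = 0.0028).

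**Figure D5:**
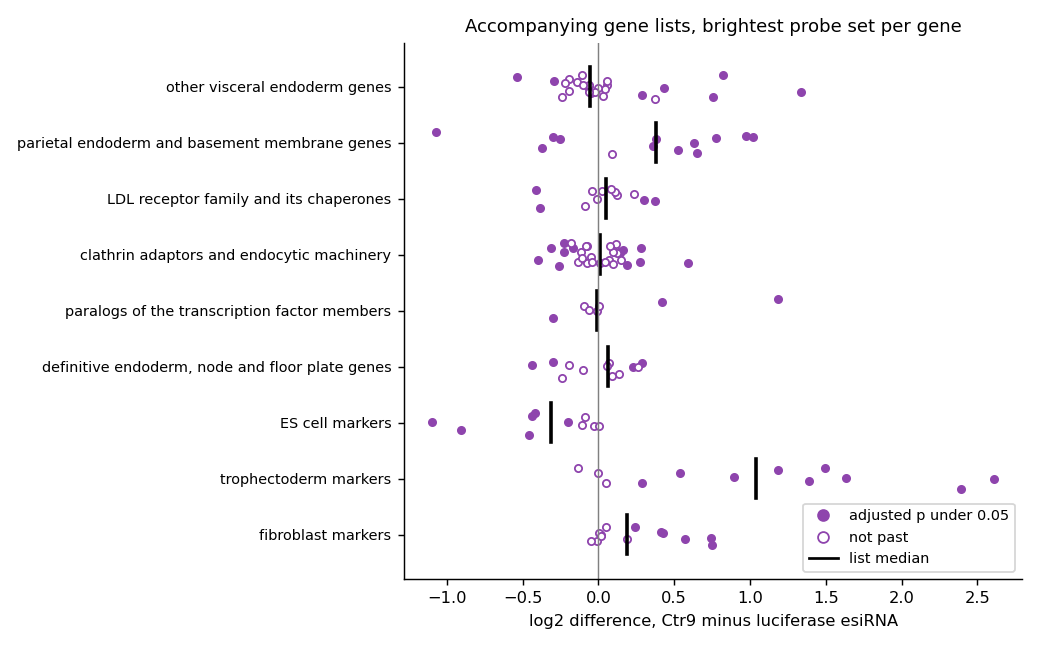
Log2 difference, Ctr9 minus luciferase esiRNA (horizontal axis), of every measured gene of 9 accompanying lists, by brightest probe set; filled points passed an adjusted p of 0.05 and black lines are list medians. The other visceral endoderm genes centre near 0 (median -0.053), the parietal endoderm and trophectoderm lists lie to the right (0.38 and 1.04) and the ES cell markers to the left (-0.31).

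Markers of other cell types moved in the same arrays as Foxa2, Lrp2 and Dab2. Of 12 measured trophectoderm markers 9 rose and none fell by brightest probe set (75%, against 30.8% of all genes), with a median of 1.04. The sum of their linear signals ran from 5721 to 6204 with Ctr9 esiRNA, against 2296 to 2695 with luciferase esiRNA. The largest rises were those of the keratin genes Krt8 (2.61), Krt18 (2.39) and Krt19 (1.63) and the placental gene Plac1 (1.5). Gata3 stands in this list too. Tfap2c did not pass on its brightest probe set (-0.13, limma adjusted p = 0.319). Its other probe sets fell, by 0.50 and 0.37 (limma adjusted p = 6.31e-05 and 0.000638). Of 12, 4 read below the array median with luciferase esiRNA, and array signals have no true 0. Of 13 parietal endoderm and basement membrane genes 8 rose and 4 fell (92.3%, against 30.8% of all genes), with a median of 0.38. The follistatin gene Fst rose by 1.02, the collagen gene Col4a1 by 0.65 and the laminin gene Lamb1 by 0.52, while the laminin gene Lama1 fell by 1.07 (limma adjusted p = 9.42e-06). The summed signals of that list were 6862 to 7352 with Ctr9 esiRNA and 6246 to 6765 with luciferase esiRNA. Of 13 fibroblast markers 6 rose and none fell (46.2%, against 30.8% of all genes), with a median of 0.19. Their sums were 998 to 1060 with Ctr9 esiRNA against 789 to 828 with luciferase esiRNA. The part of these cell types in the changes of Foxa2, Lrp2 and Dab2 was not tested.

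The genes whose profile over the 8 arrays lay nearest to a gene that passed were found by the root mean square distance between log2 deviations from the luciferase mean. For Dab2 they were the carbonic anhydrase gene Car2 (0.046), Parp12 (0.078) and the tropomyosin gene Tpm1 (0.082). For Lrp2 they were the thrombospondin gene Thbs1 (0.110), the sialomucin gene Podxl (0.118) and Cthrc1 (0.131). For Foxa2, whose Ctr9 esiRNA arrays were uneven, the nearest were farther off: Gbp7 (0.232), the Wnt receptor gene Fzd2 (0.243) and Oasl2 (0.254). The small changes of Amn and Hnf4a had nearer neighbours, first Homer1 (0.028) and Kri1 (0.028). The distance mostly reflects the size of the difference between the 2 groups that all these genes share, and it is given as a description.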

How the data were processed

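RNA was measured on 8 one-colour arrays, 4 a group, grouped by the labels' titles. The authors deposited log2 signals per probe set, made with GCOS 1.4 and RMA per the submitters' processing notes, without settings or annotation. RNA was column-purified, DNase-treated and biotin-labelled in one cycle, per the labels' protocols. RMA makes the arrays' distributions alike, which hides any shift common to the whole array.

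No further scaling was applied. Of 45101 probe sets, 64 manufacturer controls were left out; 34945 of the rest have 1 gene symbol in the platform annotation, 932 several and 9160 none here. Symbols were updated through Entrez identifiers (GRCm38.p6 gene table, names only). Among a gene's 1-symbol probe sets the brightest over the 8 arrays stood for it, and low signals were not filtered. Groups were compared with limma 3.58.1 in R 4.3.3 (lmFit, eBayes) with Benjamini-Hochberg adjustment over all 45037 probe sets, at 0.05; SE is the moderated standard error and percentiles are over all probe sets. Intervals of pair differences use the pooled SD between arrays. The fits of Sox7, Gata5, Ap2a2 and Rab5a used 3 luciferase values. Of 139 listed genes 129 were measured. Named are all 9 genes, up to 4 genes per list with the smallest adjusted p, the paralogs, Ctr9 and the 3 nearest profiles (first one only for Amn and Hnf4a). The genes, lists and pairs were chosen with earlier results of these data known. The tests were tried on simulated data. Alternatives were a filter on dim probe sets, 2 other scalings, another prior, array weights, a replicate block, leaving out arrays, a threshold of 0.01 and averaging the probe sets of each gene. Figures were drawn with matplotlib 3.10.9.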

Additional observations from a re-analysis of the deposited data

Results flagged for a closer look

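Within each group of 4 arrays, the highest or lowest array was set against the others for the 25 probe sets, 50 groups in all. In 5 groups the gap to the nearest array exceeded Dixon's 95% critical value, where chance flags about 1 in 20. The dim Gata6 probe set read 4.05 in luciferase array 2, against 3.88 to 3.90 in the other luciferase arrays. The brightest Hnf4a probe set read 6.59 in Ctr9 esiRNA array 3, against 6.48 to 6.50, and the dimmest Hnf4a probe set read 3.67 in luciferase array 2, against 3.75 to 3.76. Among Afp probe sets, one read 4.61 in Ctr9 esiRNA array 1, against 4.42 to 4.43, and another read 3.81 in Ctr9 esiRNA array 3, against 3.50 to 3.54. Luciferase array 2 thus stood apart for Gata6 and Hnf4a and Ctr9 esiRNA array 3 for Hnf4a and Afp, and no array of Foxa2, Lrp2, Dab2, Amn or Cubn stood apart in this way.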

How the results depend on the processing

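The rises of Foxa2, Lrp2, Dab2 and Amn on their brightest probe sets kept their direction and passed in every alternative that gave a value (adjusted p at most 0.00111, 0.000119, 8.44e-05 and 0.0385); Foxa2, Gata4, Gata6, Cubn and Afp lie below the array median and had no value with the filter on dim probe sets. Between 4 and 5 of the 9 genes, 8 and 11 of the 25 probe sets, and 50 and 72 listed genes (59 as reported) passed over the alternatives. The probe sets past the test fell to 7000 at a threshold of 0.01, against 11209 at 0.05. With the mean over all probe sets of a gene, the rises of Lrp2 and Dab2 were 0.88 and 0.63, against 1.51 and 1.26 on the brightest, the sign turned for Gata4 (-0.047) and Cubn (0.12), neither past the test, and the pair differences were 0.76 for Lrp2 minus Cubn, -0.17 for Cubn minus Amn and 2.26 for Foxa2 minus Hnf4a, with adjusted p = 0.0714, 0.107 and 0.0714 in the exact permutation test. Lrp2 minus Cubn was 1.44 without luciferase arrays 1 and 2 and 1.83 without arrays 3 and 4, where 15 splits allow no p under 0.0667, so only values were taken. The pairs were also tested leaving out 1 array (35 splits, smallest p 0.0286), on the brightest probe sets only. Lrp2 minus Cubn (1.54 to 1.71), Cubn minus Amn (-0.46 to -0.37) and Foxa2 minus Hnf4a (2.03 to 2.31) passed the exact permutation test each time (adjusted p at most 0.0476). Gata4 minus Gata6 (0.13 to 0.24) never passed it. Lrp2 minus Dab2 (0.17 to 0.31) passed it only without luciferase replicate 3 (0.31, adjusted p = 0.0357). Same-numbered arrays of the groups did not deviate together (correlations 0.061, -0.078, 0.063 and -0.067). Whether the numbers pair samples that were handled together cannot be settled from these correlations. With the replicate number as a block the Hnf4a difference of -0.16 had an adjusted p of 0.0934 in limma, and the calls of the other 8 genes were as reported. The quantile, median centring, prior and weight settings ended no call among the 9 genes but that of Hnf4a. The cause was not tested.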
